A study of Homo sapiens with 6 samples.

Results

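The Wnt ligands, their receptors, the secreted antagonists and the genes that relay or respond to the signal form a group of 54 genes, all 54 of which were found among the 60605 rows of a gene count table. They were measured in UMUC3, an established human bladder cancer cell line, by RNA sequencing of total RNA. One group of 3 libraries came from cells infected with a vector that carried TIM-1 (TIM-1-PLVX-IRES-zsgreen), and the other group of 3 from cells infected with the empty vector, so both groups carried the vector backbone. TIM-1, encoded by HAVCR1, is a cell surface receptor for phosphatidylserine. The members were chosen by gene symbol, as a list of pathway genes, because 1 of them, SFRP1, was known from these libraries to be far higher with TIM-1. The values of SFRP1 in that comparison are therefore a description and carry no test. The labels do not say whether the infected cells were cloned, sorted or kept as a pool, or whether replicates were separate cultures, and p-values thus cover the spread among these 6 libraries, which could be technical.

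Wnt proteins are lipid-modified secreted ligands. They bind Frizzled receptors together with the co-receptors LRP5 or LRP6, which blocks the complex of AXIN and APC that marks beta-catenin for destruction, and beta-catenin then acts in the nucleus with TCF and LEF factors. Other branches use ROR1, ROR2 or RYK and act on cell polarity and movement rather than through beta-catenin. Secreted antagonists hold the signal down in distinct ways: SFRP proteins and WIF1 bind the ligands, DKK1 binds LRP5 and LRP6, and NOTUM removes the lipid from the ligand. Silencing of antagonist genes of this family is well known in bladder cancer.

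Library totals ran from 14312387 to 18605914 counts. HAVCR1 was at 7069 to 11479 counts in the TIM-1 libraries and at 4, 0 and 0 counts with the empty vector. Of the urothelial and epithelial markers examined, KRT18 (272 to 511 CPM, normalised counts scaled to the library total) and KRT8 were well expressed, while EPCAM, UPK3A and KRT20 were at 0 and CDH1 had 2 counts in all. Of the 5 tested markers of this list 2 were lower with TIM-1 in the paired edgeR test described below, where 1.79% of all tested genes were lower. These were KRT18 (log2 -0.24, edgeR adjusted p = 0.00947) and GATA3 (log2 -1.25, edgeR adjusted p = 0.0457). The other 3 had log2 differences above 0, up to 0.22, with no call. DESeq2 with the pairing called 1 of the 5. The part of these markers in the Wnt differences was not tested. VIM, a mesenchymal marker, was at 1413 to 2121 CPM, and the 5 leukocyte markers were at 0. Replicate 1 of both groups stood apart from replicates 2 and 3. The labels do not say what the number marks. The replicate 1 difference is given beside the TIM-1 values of many genes below, but not of all.

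Of the 54 members, 36 had enough counts to be tested, 10 had a few counts and 8 were at 0 in all 6 libraries. The cells thus expressed a restricted set of the pathway. The 8 genes at 0 were the antagonists SFRP5, WIF1, DKK2 and DKK4, the ligands WNT3A, WNT10A and WNT11, and the receptor FZD10. The detection limit that a count of 0 allows (3 counts) was 0.162 to 0.207 CPM per library. SFRP2, FZD9 and RNF43 had 1 count in 1 library, and SFRP4, FRZB, WNT4, WNT6, WNT7A, WNT16 and FZD6 were also too low to be tested. RNF43 encodes a ligase that removes Frizzled receptors from the surface, and 73.9% of its exon bases are shared with other annotated genes.

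The planned edgeR test, with libraries unpaired, called 0 of the 35 tested members other than SFRP1, where it called 0.0138% of all genes. An unadjusted p under 0.05 was reached by 2 of the 35, DKK3 and ROR2, and by 795 of all 14479 tested genes. DESeq2 called 0 of the 35. Libraries were also paired by their number, which for replicates 2 and 3 rests on the titles alone. When same-numbered libraries were compared as pairs, 4 of the 35 passed (11.4%, against 5.01% of all genes): the antagonist DKK1 fell, and the antagonist DKK3 and the receptors LRP5 and ROR2 rose. The promoter sequences of 3 of them are shown so that the letters discussed can be read. They are the 250 bases before the annotated start of DKK1 (chr10:52314031-52314280, plus strand), LRP5 (chr11:68312341-68312590, plus strand) and ROR2 (chr9:91950229-91950478, minus strand) from RefSeq on GRCh38.p14. Capitals mark every match to 4 short motifs searched on both strands.
DKK1: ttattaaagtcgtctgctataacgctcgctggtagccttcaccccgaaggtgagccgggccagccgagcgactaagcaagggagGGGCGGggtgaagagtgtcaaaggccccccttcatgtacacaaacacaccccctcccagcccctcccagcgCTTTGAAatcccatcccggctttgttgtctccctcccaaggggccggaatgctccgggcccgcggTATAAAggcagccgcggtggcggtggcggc
LRP5: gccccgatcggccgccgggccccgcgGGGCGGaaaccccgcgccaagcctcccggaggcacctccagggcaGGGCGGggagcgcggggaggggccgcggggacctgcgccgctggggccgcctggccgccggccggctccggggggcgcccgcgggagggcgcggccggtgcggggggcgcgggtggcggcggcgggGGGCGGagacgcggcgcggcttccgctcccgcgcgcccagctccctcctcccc
ROR2: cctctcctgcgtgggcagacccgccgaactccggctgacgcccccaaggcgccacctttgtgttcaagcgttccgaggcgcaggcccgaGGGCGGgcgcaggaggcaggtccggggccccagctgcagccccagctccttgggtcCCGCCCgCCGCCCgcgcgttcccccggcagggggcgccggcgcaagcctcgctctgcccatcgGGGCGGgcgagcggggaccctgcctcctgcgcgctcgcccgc
The core to which TCF and LEF factors bind was searched in a form ending in A, CTTTGAA. A form of it ending in T was searched as well, written CTTTGAT. These forms differ in the last letter, so 1 stretch can match only 1 of them. Other forms of the core were not searched and are not marked, ctttgtt in the DKK1 stretch among them. The GC box of Sp1-type factors was searched as GGGCGG. The TATA box was searched as TATAAA. DKK1, a known target gene of beta-catenin, held the form ending in A 95 bases before the start and a TATA box 30 bases before it. The form ending in A stood in 3.8% of 35116 promoter entries of that length, and DKK1 was the only one of the 37 members with an entry that held it. The form ending in T stood in 2.26% of entries and in no member. LRP5 held the GC box 3 times, and ROR2 held it 4 times, 2 of them on the opposite strand. The GC box stood in 42.6% of all entries and the TATA box in 10.7%. GC content was 62.8% for DKK1, 87.2% for LRP5 and 78% for ROR2, against a median of 58% over all entries. These matches describe letters only.

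Among the secreted antagonists, the cells expressed mainly DKK1 and DKK3. On a scale that allows genes to be compared, CPM per kb of exon, the mean levels over 6 libraries were 6.74 for DKK1 and 6.63 for DKK3, with overlapping ranges, and 0.519 for NOTUM. SFRP1 was at 0.783 to 0.910 with TIM-1, above NOTUM (0.518 to 0.571) in each of those libraries. With the empty vector it was at 0.130 to 0.263, below NOTUM (0.457 to 0.512) in each.

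SFRP1 (ENSG00000104332) encodes a secreted protein that resembles the ligand-binding part of Frizzled receptors and binds Wnt ligands outside the cell. The gene lies at chr8:41261958-41309497 on the minus strand of GRCh38. The TIM-1 libraries 1, 2 and 3 held 54, 70 and 76 counts of it, against 20, 10 and 17 in the empty-vector libraries. All 3 TIM-1 libraries lay above all 3 empty-vector libraries. The mean level was 4.05 ± 0.306 CPM against 0.966 ± 0.321 CPM (SD, n = 3 each), a 4.20-fold difference, and the log2 difference within pairs was 1.57, 2.81 and 2.00. Replicate 1 did not stand apart for this gene: its log2 difference from replicates 2 and 3, a comparison that played no part in choosing it, was 0.08 (SE 0.31, edgeR adjusted p = 0.875). Per length, the level with TIM-1 (0.851 CPM per kb) stayed well below that of DKK3. DKK3 exceeded SFRP1 by a factor of 7.83 to 10.5 in TIM-1 libraries and of 24.0 to 39.9 in empty-vector libraries. In bulk samples, a change in the number of cells that make a transcript and a change in its amount per cell cannot be told apart.

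DKK1 (ENSG00000107984, chr10:52314296-52318042, plus strand) encodes a secreted protein that binds LRP5 and LRP6 and keeps them from the Wnt receptor complex. It had 97, 241 and 247 counts in the TIM-1 libraries and 144, 390 and 350 in those of the empty vector. TIM-1 was the lower library in each pair, but replicate 1 was far below the others in both groups, so the groups overlapped. The means were 11.7 ± 4.36 and 18.1 ± 7.99 CPM (SD, n = 3 each). The paired log2 difference was -0.62 (SE 0.12, edgeR adjusted p = 0.000817), with -0.43, -0.69 and -0.66 in the 3 pairs. Replicate 1 was lower than replicates 2 and 3 by a larger amount, a log2 difference of -1.21 (SE 0.14, edgeR adjusted p = 1.5e-09). The DKK1 exons share 9.61% of their bases with other genes.

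DKK3 (ENSG00000050165, chr11:11963106-12009769, minus strand) encodes a divergent member of the Dickkopf family whose place in Wnt signalling is less settled than that of DKK1. Its counts were 600, 625 and 632 with TIM-1, against 509, 424 and 478 with the empty vector. Every TIM-1 library lay above every empty-vector library. The level was 38.1 ± 3.68 CPM against 28.98 ± 2.84 CPM (SD, n = 3 each), a 1.31-fold difference, and the paired log2 difference was 0.39 (SE 0.09, edgeR adjusted p = 0.00521). For replicate 1 against the other two the log2 difference was 0.20 (edgeR adjusted p = 0.125).

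Per kb of exon, the sum of all 11 antagonist transcripts overlapped between the groups, while its makeup differed within pairs. In CPM, without the scaling to length, the sum was 53.2 to 60.0 with TIM-1 and 43.5 to 52.7 with the empty vector, without overlap. Both sums include SFRP1, which was chosen for its difference, and neither was tested. The summed level was 12.8, 16.0 and 14.2 CPM per kb with TIM-1, against 11.1, 16.8 and 16.0 with the empty vector, and the groups overlapped. DKK1 took 23.8%, 42.3% and 42.6% of this sum with TIM-1, against 36.8%, 65.0% and 59.8% with the empty vector. DKK3 took 64.1%, 47.9% and 47.5%, against 56.7%, 30.8% and 35.6%. Within each pair the DKK1 share was lower and the DKK3 share higher with TIM-1, but the groups overlapped for both shares. These 2 genes made up most of the sum, so a lower share of 1 goes with a higher share of the other. SFRP1 took 5.70% to 6.13% with TIM-1 and 0.773% to 2.37% with the empty vector. These shares come from the same counts as the gene values and were not tested.

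The other antagonists were low. NOTUM had 25, 27 and 29 counts with TIM-1, against 22, 25 and 25 with the empty vector, and its log2 difference of 0.16 (SE 0.34) was below its error although the groups did not overlap. FRZB, an SFRP relative, had 7, 2 and 1 counts with TIM-1 and 0 in each empty-vector library. Most of these counts came from TIM-1 replicate 1, and no fold is given. SFRP4 had 1 to 4 counts with TIM-1 and 0 to 3 with the empty vector.

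**Figure D1:**
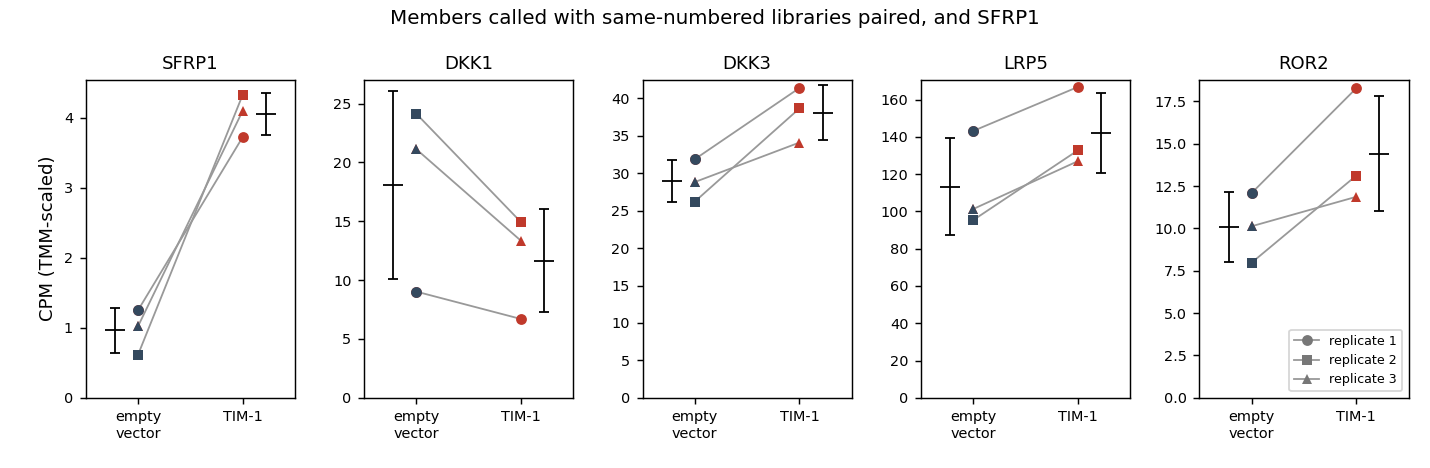
Normalised counts (CPM, linear axes from 0) of SFRP1, DKK1, DKK3, LRP5 and ROR2 in each library, with lines joining same-numbered libraries and bars giving the group mean and SD (n = 3). TIM-1 lies on the same side in all 3 pairs of each gene, while only SFRP1 and DKK3 have groups that do not overlap.

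SFRP1 and DKK3 are also made by stromal fibroblasts, and fibroblast markers were examined beside them. The summed level of 7 such markers was 9.47 to 16.2 CPM with TIM-1 and 5.79 to 9.46 CPM with the empty vector. Nearly all of it was COL1A1 (7.24 to 13.2 against 3.92 to 7.33 CPM) and PDGFRB. Of the 2 tested markers of this list, COL1A1 rose in the paired test (log2 0.90, edgeR adjusted p = 0.000265), where 3.22% of all tested genes rose. The other tested marker had a log2 difference of 0.27 with no call. DESeq2 with the pairing also called 1 of the 2. In replicate 1 both were higher than in the other replicates (log2 0.21 and 0.83), and 1 of them passed. DCN was at 0 in all 6 libraries, and COL1A2, LUM and PDGFRA had at most 2 counts in any library. The part of these markers in the SFRP1 and DKK3 differences was not tested.

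Counts of members that passed were set against all 14479 tested genes, with an adjusted p under 0.05 as the threshold. SFRP1 is left out of these counts. An unadjusted p under 0.05 in the paired test was reached by 10 of the 35, and by 2656 of the 14479. Counts at that level given below for the paired test are to be read against this share. Of the 4 members that passed among 35 in the paired test, 3 rose (3.22% of all genes rose) and 1 fell (1.79% of all genes fell). The median log2 difference of the 35 was 0.08, against 0.00 over all tested genes. The groups did not overlap for 3 of the 35, DKK3, NOTUM and ZNRF3 (8.57%), where 11.7% of all genes did so, a share no larger than the background. All 3 pairs went the same way in 18 of these members (51.4%) and in 39.2% of all genes.

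Leaving out pairs ended calls while the differences themselves kept much of their size. Without the replicate 2 libraries, DKK1, DKK3, LRP5 and ROR2 all failed the threshold (edgeR adjusted p = 0.0811, 0.304, 0.189 and 0.295), in a fit of 4 libraries that called 209 genes in place of 725. Their log2 differences in that fit were -0.57, 0.31, 0.27 and 0.42. Without the replicate 1 libraries ROR2 failed (log2 0.46, edgeR adjusted p = 0.0832), and without replicate 3 all 4 passed and WNT7B joined them. DESeq2 with the pairing called DKK1 (adjusted p = 0.0476) and LRP5 (adjusted p = 0.00924), and left DKK3 at 0.120 and ROR2 at 0.282. The direction of all 4 genes was the same in every one of these fits.

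WNT5B was the leading ligand, and the ligands as a group gave no call with TIM-1. Its level of 24.4 CPM per kb was followed by WNT10B at 9.53 and WNT7B at 6.02, and these 3 made up most of the ligand transcripts. The ranges of WNT10B and WNT7B overlapped, since WNT7B was above WNT10B in TIM-1 replicate 1 (8.87 against 6.90). WNT5B, a ligand of the branches that do not use beta-catenin, had 1447, 1800 and 2012 counts with TIM-1, against 1506, 1616 and 1905 with the empty vector. Its share of the summed ligand level was 55.1%, 57.6% and 57.7% with TIM-1, against 55.3%, 56.6% and 58.2% with the empty vector, and the groups overlapped almost wholly.

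WNT10B, a ligand that activates beta-catenin, had 263, 449 and 481 counts with TIM-1, against 339, 457 and 480 with the empty vector. Replicate 1 was the lowest library in both groups. WNT7B had 649, 437 and 516 counts with TIM-1, against 532, 348 and 463 with the empty vector, with replicate 1 the highest in both. Their paired log2 differences with TIM-1 were -0.13 (edgeR adjusted p = 0.525) and 0.25 (edgeR adjusted p = 0.129). Replicate 1 differed from the others by -0.50 for WNT10B (edgeR adjusted p = 0.000494) and by 0.58 for WNT7B (edgeR adjusted p = 1.28e-05). The share of WNT7B in the ligand sum was 21.0% in TIM-1 replicate 1 and 16.6% in empty-vector replicate 1, and 10.4% to 12.6% in the other 4 libraries.

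WNT5A, WNT9A, WNT3 and WNT2B were each below 1 CPM per kb on average, and their paired log2 differences lay between -0.11 and 0.24 with no call. WNT5A was higher in replicate 1 (log2 0.48, edgeR adjusted p = 0.0313). Among all 7 tested ligands, 1 had an unadjusted p under 0.05 with the pairing and DESeq2 called 0. WNT4 had 7 to 16 counts per library, WNT6 had 1 to 8, WNT16 had 0 to 8 and WNT7A had 0 or 1.

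The genes that make ligands fit for export were both expressed. WLS, the carrier that takes Wnt proteins to the cell surface, had 1727, 1656 and 2031 counts with TIM-1, against 1620, 1638 and 1810 with the empty vector. PORCN, the enzyme that attaches the lipid, had 89, 71 and 88 counts with TIM-1, against 80, 59 and 65 with the empty vector. Both were higher with TIM-1 in all 3 pairs, by small paired log2 differences of 0.08 for WLS (edgeR adjusted p = 0.553) and 0.28 for PORCN (edgeR adjusted p = 0.485), and the groups overlapped.

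**Figure D2:**
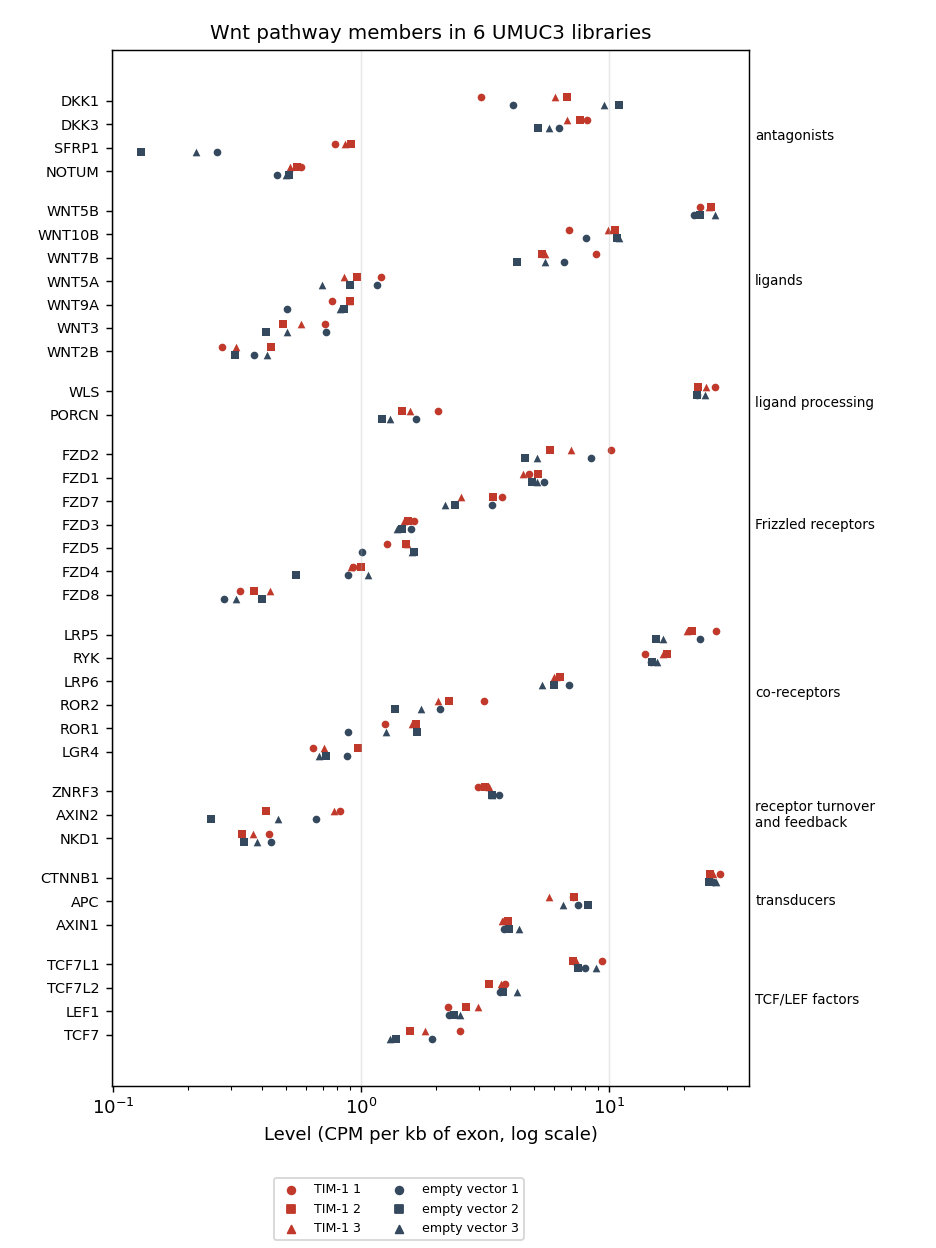
Level of the 36 tested members in each of 6 libraries, in CPM per kb of exon on a log axis, grouped by role. WNT5B, WLS, LRP5 and CTNNB1 lead their roles with mean levels between 20.7 and 26.4. The points of SFRP1, a gene chosen for its difference with TIM-1, lie farthest apart between the groups.

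Of the Frizzled receptors, FZD2 (6.85 CPM per kb) and FZD1 (4.97) were the most abundant with overlapping ranges, followed by FZD7 (2.92), FZD3 (1.52), FZD5 (1.43), FZD4 (0.888) and FZD8 (0.353). FZD2 had 312, 197 and 274 counts with TIM-1, against 284, 157 and 179 with the empty vector. It was higher with TIM-1 in each pair, with a paired log2 difference of 0.35 (SE 0.12, edgeR adjusted p = 0.0844) that did not pass. FZD1 had 480, 579 and 578 counts against 607, 548 and 589, and its log2 difference of -0.10 was near its error of 0.09.

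FZD7 had 206, 212 and 181 counts with TIM-1, against 207, 149 and 139 with the empty vector. FZD5 had 124, 164 and 191 counts against 108, 178 and 179. Their paired log2 differences were 0.28 (edgeR adjusted p = 0.243) and 0.03 (edgeR adjusted p = 0.938). Replicate 1 stood apart for all 3 of these receptors: it was higher for FZD2 (log2 0.74, edgeR adjusted p = 8.1e-06) and FZD7 (log2 0.44, edgeR adjusted p = 0.0155) and lower for FZD5 (log2 -0.47, edgeR adjusted p = 0.0234). Of the 7 tested Frizzled genes, the paired edgeR test called 0, and DESeq2 called 0. An unadjusted p under 0.05 was reached by 2 of the 7, and by 2656 of all 14479 tested genes. FZD6 had 3, 1 and 0 counts with the empty vector and 0 in the TIM-1 libraries.

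**Figure D3:**
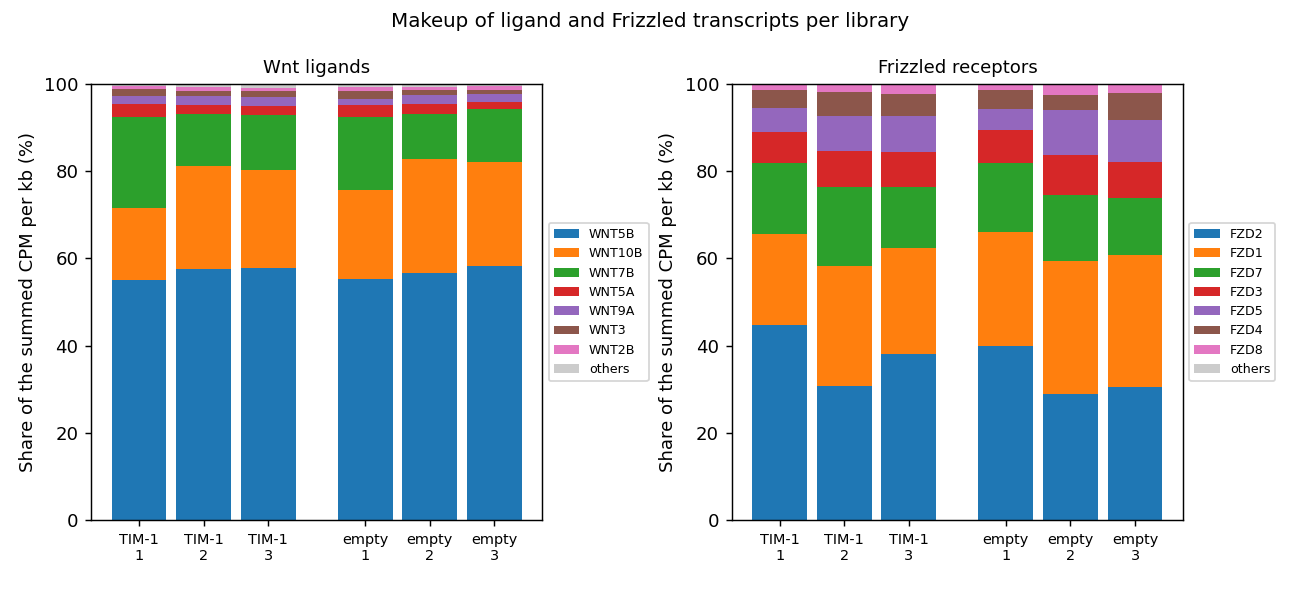
Share (%) of each gene in the summed level (CPM per kb) of the Wnt ligands and of the Frizzled receptors, 1 bar per library from 0 to 100. WNT5B takes 55.1% to 58.2% of the ligand sum in all 6 libraries, and FZD2 takes its largest shares, 44.7% and 40.0%, in replicate 1 of each group.

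LRP5 and ROR2 were the receptor genes that rose in the paired test, and they belong to different branches. LRP5 (ENSG00000162337, chr11:68312609-68449275, plus strand), the most abundant co-receptor at 20.7 CPM per kb, had 2417, 2147 and 2353 counts with TIM-1, against 2286, 1542 and 1679 with the empty vector. Empty-vector replicate 1 lay among the TIM-1 libraries, so the groups overlapped, but TIM-1 was higher in each pair. The means were 142 ± 21.5 and 113 ± 26.1 CPM (SD, n = 3 each), and the paired log2 difference was 0.34 (SE 0.07, edgeR adjusted p = 0.00061). Replicate 1 was higher too, with a log2 difference of 0.45 (edgeR adjusted p = 1.11e-06). The ratio of LRP5 to LRP6 per length was 3.41 to 4.30 with TIM-1 and 2.58 to 3.38 with the empty vector. LRP6, with a level of 6.14 CPM per kb, had a paired log2 difference of 0.04 (SE 0.08).

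ROR2 (ENSG00000169071, chr9:91563091-91950162, minus strand), a receptor tyrosine kinase for WNT5A-type ligands, had 265, 212 and 220 counts with TIM-1, against 193, 129 and 168 with the empty vector. Once more TIM-1 was higher in each pair and the groups overlapped through empty-vector replicate 1. The means were 14.4 ± 3.40 and 10.1 ± 2.06 CPM (SD, n = 3 each), a 1.43-fold difference. The paired log2 difference was 0.51 (SE 0.13, edgeR adjusted p = 0.0135), and that of replicate 1 from the others was 0.49 (edgeR adjusted p = 0.00579). Its relative ROR1 had 122, 181 and 199 counts against 95, 182 and 140. ROR1 went the opposite way in replicate 1, with a log2 difference of -0.54 (edgeR adjusted p = 0.00966), and had 0.26 with TIM-1 (edgeR adjusted p = 0.345).

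RYK, a Wnt receptor with a kinase-like domain, was the other abundant surface gene. It had 1626, 2235 and 2452 counts with TIM-1, against 1893, 1947 and 2084 with the empty vector, and its paired log2 difference was 0.07 (SE 0.07). LGR4, a receptor for R-spondins, was near 0.767 CPM per kb, with a log2 difference of 0.03 (SE 0.20).

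The genes of receptor turnover and feedback, the transducers and the TCF genes gave 0 calls in the paired edgeR test among 3, 3 and 4 tested, with 1 of each at an unadjusted p under 0.05 and 0 by DESeq2. ZNRF3, a ligase that removes Frizzled receptors, had 299, 355 and 424 counts with TIM-1, against 400, 379 and 391 with the empty vector. In CPM its groups did not overlap, with TIM-1 lower, and the paired log2 difference was -0.14 (SE 0.10, edgeR adjusted p = 0.521). AXIN2, a feedback inhibitor widely used as a readout of beta-catenin activity, had 62, 35 and 75 counts with TIM-1, against 55, 21 and 40 with the empty vector. It was higher with TIM-1 in each pair with a paired log2 difference of 0.58 (SE 0.25, edgeR adjusted p = 0.195), and replicate 1 was higher by 0.73 (edgeR adjusted p = 0.0317). Exons of AXIN2 share 25.2% of their bases with other genes. NKD1, another feedback inhibitor, had a log2 difference of -0.04 (SE 0.17).

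The transducers were abundant, and their TIM-1 and empty-vector ranges overlapped. CTNNB1, which encodes beta-catenin, had 4835, 4915 and 5784 counts with TIM-1, against 5007, 4897 and 5313 with the empty vector, or 317 ± 15.2 and 312 ± 8.91 CPM (SD, n = 3 each). The scaffold APC had 1293, 1457 and 1325 counts against 1488, 1661 and 1348, lower with TIM-1 in each pair by a log2 difference of -0.15 (SE 0.07, edgeR adjusted p = 0.242). AXIN1, the limiting scaffold of the destruction complex, had a log2 difference of -0.08 (SE 0.10). Protein levels and the location of beta-catenin were not measured.

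TCF7L1 was the leading TCF gene, ahead of TCF7L2, LEF1 and TCF7 (8.04, 3.74, 2.50 and 1.75 CPM per kb). TCF7L1, which mostly acts as a repressor, had 598, 510 and 599 counts with TIM-1, against 566, 535 and 651 with the empty vector. TCF7L2 had 373, 358 and 458 counts against 391, 408 and 477. TCF7 had 367, 255 and 336 counts against 310, 225 and 218, and was higher with TIM-1 in each pair by a log2 difference of 0.35 (SE 0.11, edgeR adjusted p = 0.0639) that did not pass. In replicate 1 TCF7 was higher by 0.55 (edgeR adjusted p = 0.000311). LEF1 had a paired log2 difference of 0.13 (SE 0.13).

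Replicate 1 was also compared with replicates 2 and 3 over all the members. With the group as a term, 12 of 36 tested members (33.3%) passed, where 26.4% of all genes did, a share near the background. Of these, 8 were higher in replicate 1 (WNT5A, WNT7B, FZD2, FZD7, LRP5, ROR2, AXIN2 and TCF7) and 4 were lower (DKK1, WNT10B, FZD5 and ROR1). DESeq2 called 6 of them, DKK1, WNT7B, WNT10B, FZD2, LRP5 and TCF7. The TIM-1 and the replicate comparison use the same 6 libraries. DKK1, LRP5 and ROR2 passed both with the same sign, and the replicate comparison did not pass for DKK3 or SFRP1. Whether what sets replicate 1 apart has a part in the TIM-1 differences was not tested.

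**Figure D4:**
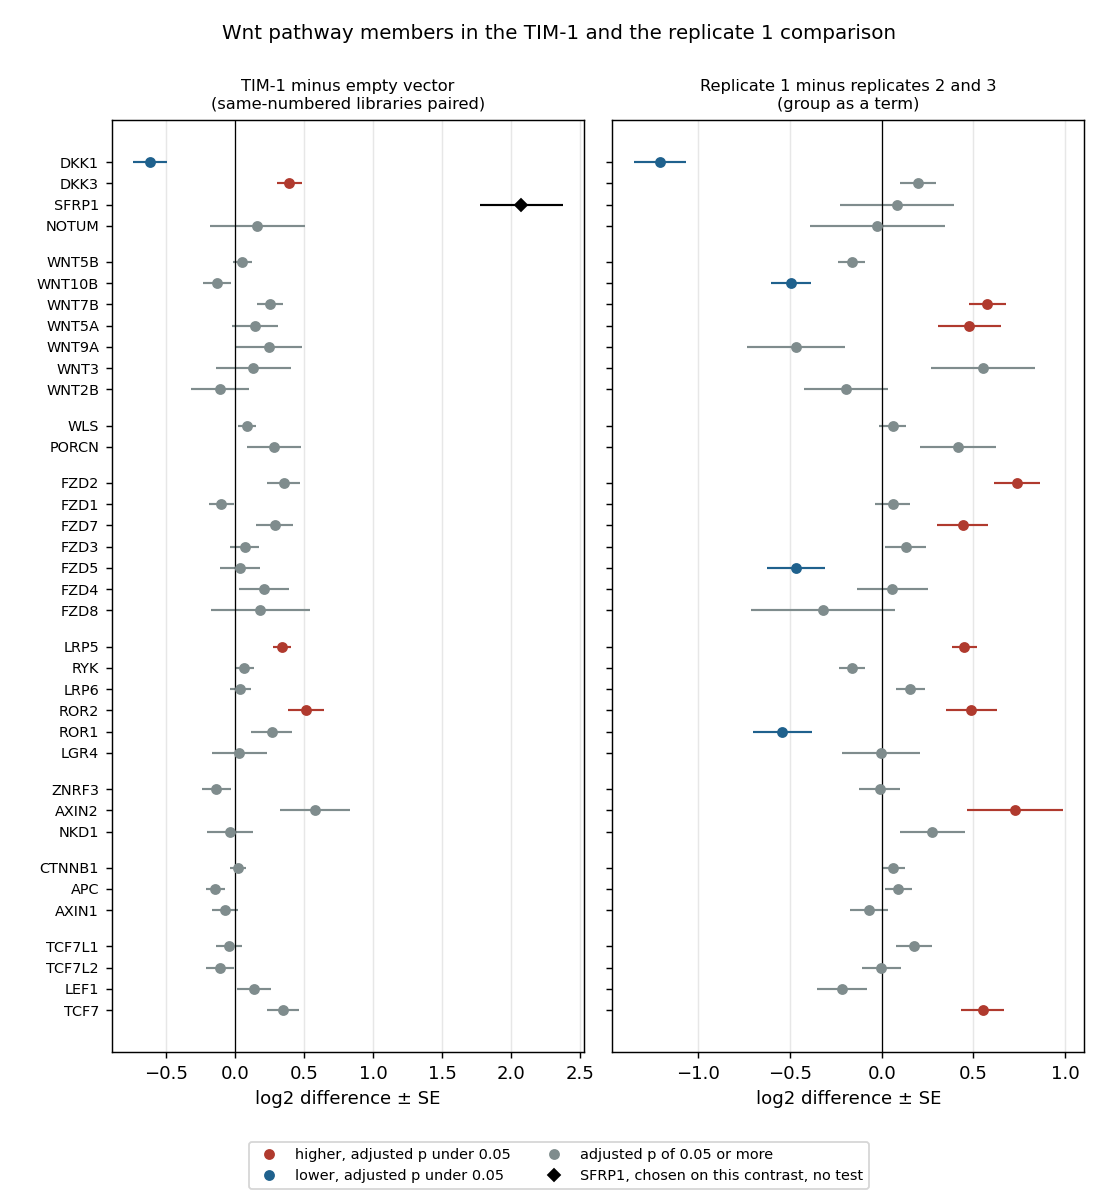
Log2 difference ± SE of the 36 tested members with TIM-1 (left, same-numbered libraries paired) and between replicate 1 and replicates 2 and 3 (right, group as a term). Coloured points passed an adjusted p under 0.05, with 3 higher and 1 lower on the left and 8 higher and 4 lower on the right, and SFRP1 on the left (black diamond) has no test.

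The wider pathway was read from lists of 151 further genes, of which 116 were tested. In the paired test 10 of the 116 passed (8.62%), 7 higher and 3 lower, against 5.01% of all genes, and DESeq2 with the pairing called 3. With the libraries unpaired edgeR called 0, with 8 at an unadjusted p under 0.05 (795 of all 14479 tested genes), and DESeq2 called 0. All further values in the next paragraphs come from the paired edgeR test.

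Among known target genes, members included, 33 were tested, of which 2 rose and 3 fell, where 3.22% of all genes rose and 1.79% fell. DESeq2 with the pairing called 4 of the 33. CCN5, which encodes a secreted protein of the CCN family, had 144, 65 and 54 counts with TIM-1, against 53, 11 and 12 with the empty vector. Its log2 difference was 1.92 (SE 0.26, edgeR adjusted p = 6.84e-07), and the groups overlapped because empty-vector replicate 1 was high. VEGFA, the angiogenic growth factor, rose (log2 0.52, edgeR adjusted p = 7.57e-06). MYC, a growth-promoting transcription factor and classic beta-catenin target, fell (log2 -0.35, edgeR adjusted p = 0.000105), from 174, 318 and 358 CPM with the empty vector to 140, 252 and 272 CPM. DKK1 and CCND1 were the other targets that fell. CCND1, the cyclin that drives cells into the cycle, was at 463 to 466 CPM with TIM-1 and at 501 to 555 CPM with the empty vector (log2 -0.19, edgeR adjusted p = 0.0442). Thus the targets that passed went in both directions, and the median over the 33 was 0.04. LGR5, SP5 and MMP7, often used as targets in epithelial cells, were at 0 in every library. CCN5, VEGFA and MYC passed without any 1 of the 3 pairs, and CCND1 failed without each, with log2 differences of -0.23 to -0.16. Replicate 1 was higher than the others for CCN5 (log2 1.77) and VEGFA (log2 0.68) and lower for MYC (log2 -0.93), the same signs as with TIM-1.

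Surface partners of the receptors gave 3 of 9 tested genes higher and 0 lower, where 3.22% of all genes were higher and 1.79% lower. GPC6, a glypican of the cell surface, had 177, 133 and 185 counts with TIM-1, against 157, 56 and 74 with the empty vector (log2 0.85, edgeR adjusted p = 0.00104). RECK, a partner of Frizzled in WNT7 signalling, had a log2 difference of 0.40 (edgeR adjusted p = 0.0372). PTK7, a pseudokinase of the polarity branch, had 0.30 (edgeR adjusted p = 0.0398). GPC6 passed without any 1 pair. RECK and PTK7 failed without each of the 3 pairs, with log2 differences of 0.32 to 0.45 and 0.28 to 0.32 in those fits. DESeq2 with the pairing called 0 of the 9. Replicate 1 was higher than the others for GPC6 (log2 0.84, edgeR adjusted p = 0.000243) and RECK (log2 0.48, edgeR adjusted p = 0.00308), the same signs as with TIM-1. The TIM-1 and empty-vector groups overlapped for both of these genes. For PTK7 the replicate 1 difference was 0.24 (edgeR adjusted p = 0.0531), and the groups did not overlap.

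Calls in the inner parts of the pathway came at shares near that of all tested genes (5.01%). The shares were 0% for the destruction complex and cytoplasm and 4.76% for the nuclear co-factors. For the polarity and calcium branches the share was 7.14%. Of 25 tested genes of the destruction complex and cytoplasm 0 passed, with 2 at an unadjusted p under 0.05 and 0 by DESeq2, and the most abundant were CSNK1A1 (log2 0.00) and PPP2CA (log2 -0.09), a kinase and a phosphatase subunit of that complex. Of 21 nuclear co-factors 1 rose, CTNNBIP1, an inhibitor of the binding of beta-catenin to TCF factors (log2 0.38, edgeR adjusted p = 0.0213), which failed without the replicate 2 pair (log2 0.27, edgeR adjusted p = 0.470) and in DESeq2 with the pairing (adjusted p = 0.297). Of 28 genes of the polarity and calcium branches, PPP3CA, a calcineurin subunit, rose (log2 0.77, edgeR adjusted p = 0.00178). It stood at 8.64 to 9.52 CPM with TIM-1 and 4.65 to 6.01 CPM with the empty vector, and passed without any 1 pair but not in DESeq2 with the pairing (adjusted p = 0.101). ROCK1, a kinase downstream of RHOA, fell (log2 -0.28, edgeR adjusted p = 0.012), and failed without replicate 2 (log2 -0.27) or replicate 3 (log2 -0.19) and in DESeq2 (adjusted p = 0.126). Of 8 other ligands and secreted regulators 0 passed, with 2 at an unadjusted p under 0.05 and 0 by DESeq2. The most abundant of these, TRABD2A and IGFBP4, both regulators that hold Wnt signalling down, had log2 differences of 0.07 and 0.24.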

How the data were processed

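The authors deposited 1 table of raw counts, whole reads per Ensembl gene in 6 libraries. The submitters' processing notes name the build hg38 and the tools HISAT2 2.0.5, featureCounts 1.5.0-p3 and DESeq2 1.16.1. Strand setting and multi-mapping rule: not given in the sources used here. Where genes overlap, reads may have been split or dropped. Positions and exon lengths came from GENCODE 29.

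Members and gene lists were chosen with earlier results of these data known. Genes were kept with filterByExpr at a minimum count of 10, which left 14479, and tested with the quasi-likelihood test of edgeR 4.0.16 (robust, TMM factors) in R 4.3.3. P-values are two-sided, adjusted by Benjamini-Hochberg over all tested genes, and called under 0.05. The planned test was unpaired, with 4 residual degrees of freedom, and the replicate number as a block was its alternative, with 2. Groups came from the labels' treatment and replicate numbers from the titles. Libraries with the same number deviated together from the group means, with correlations of 0.53, 0.23 and 0.26, all above the limit of 0.1 set for pairing. Different numbers gave -0.40 to 0.26. TIM-1 library 3 against empty-vector library 2 gave 0.26, and TIM-1 library 2 against empty-vector library 3 gave 0.19, both above the limit. Where replicate 1 stands apart from a group mean, replicates 2 and 3 deviate the opposite way in both groups, whatever their numbers. The limit therefore cannot decide how replicates 2 and 3 pair, and their pairing rests on the titles alone. Another test compared replicate 1 with the mean of replicates 2 and 3. DESeq2 1.42.0, other scalings, no filter and left-out libraries were tried beside these. The scripts were tested on simulated data. CPM values are TMM-scaled, and the detection limits cover counting error only. SD and SE values include the spread between libraries.

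Every member is named with its status. In full stand SFRP1, members called unpaired or paired, the members called for replicate 1 among the 10 of smallest p, and the 2 of highest level per role. Of the other lists up to 3 called genes, or the 2 of highest CPM, are named. CCND1, LGR5, SP5 and MMP7 were named outside this rule, after their values were seen.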

Additional observations from a re-analysis of the deposited data

How the results depend on the processing

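Without pairing, TMM, RLE and library-size scaling each gave 2 genes past the threshold, no low-count filter gave 72 and DESeq2 25, and leaving out 1 library gave 1 to 9 (9 without empty-vector replicate 1). SFRP1 is left out of the member counts here, and no other member was called in any of these settings. With the replicate block, 725 genes and 4 members passed. Further fits with the block were added after seeing the data: RLE factors gave 748 genes, library size alone 686, no filter 726, and a block of replicate 1 against the others 510, each with 4 members, DKK1, DKK3, LRP5 and ROR2. DESeq2 with the block gave 209 genes and 2 members. Leaving out the replicate 1, 2 or 3 pair gave 838, 209 or 473 genes and 3, 0 or 5 members, with log2 differences of -0.68 to -0.57 for DKK1, 0.31 to 0.47 for DKK3, 0.27 to 0.40 for LRP5 and 0.42 to 0.65 for ROR2. For replicate 1 against the others, 12 members passed with TMM, 6 with DESeq2, and 6 to 13 with 1 library left out (6 without empty-vector replicate 2). The TIM-1 differences of the 4 members and of the 10 other pathway genes called with the block, and the replicate 1 differences of the 12 members, did not change sign under the settings run for them. The log2 difference of SFRP1 ran from 1.78 to 2.35. Why these counts moved was not tested. The left-out fits also hold fewer libraries. Paired calls rest on 2 residual degrees of freedom, and the 10 members under the count filter were not testable at this depth.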
